A study of Mus musculus with 4 samples.

Results

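Methylation of histone H3 at lysine 36 and lysine 79 is written along the bodies of transcribed genes, and the 8 genes described here encode enzymes that add or remove it. They are the H3K36 methyltransferases Setd2, Nsd1, Nsd2, Nsd3 and Ash1l, the H3K79 methyltransferase Dot1l, and the demethylases Kdm2a and Kdm2b. They were found by symbol among the 16861 genes listed, and all 8 of 8 lay above the filter on low values that 11672 genes passed.

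RNA was sequenced from germinal vesicle oocytes, which are fully grown and still arrested before meiotic maturation, of 3-week-old C57BL/6J female mice without any genetic change. Oocytes were freed of cumulus cells, stained with the DNA dye Hoechst and sorted by eye into non-surrounded nucleolus (NSN) oocytes, with dispersed chromatin, and surrounded nucleolus (SN) oocytes, with a ring of condensed chromatin around the nucleolus. There were 2 libraries per configuration, each from 15 pooled oocytes. Smart-seq2 was used, a method for few cells that copies polyadenylated RNA from an oligo(dT) primer and amplifies the cDNA by PCR. The sources do not say whether the libraries came from separate mice, so p-values measure only the spread between these libraries.

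SETD2 travels with elongating RNA polymerase II and places H3K36me3 on gene bodies, whereas the NSD proteins and ASH1L place the mono- and dimethyl forms. In growing oocytes, H3K36 methylation is known to guide DNA methylation to transcribed regions through DNMT3A. DOT1L, which has no SET domain, methylates lysine 79 on nucleosomes that carry ubiquitinated H2B. KDM2A and KDM2B remove H3K36me2 and bind unmethylated CpG-rich DNA, where KDM2B brings in a Polycomb complex, PRC1.1.

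The libraries held 17069772 to 17998361 read pairs. All 12 oocyte markers sought were present, with mean levels from 18.5 to 6244 FPKM (read pairs divided by gene length and by library total). Of the 12, 8 were called lower in SN oocytes, against 1.98% of all genes tested. This count turned with the scaling. Median scaling left 5 of the 12 called (Gdf9, Bmp15, Zp1, Zp3 and Nlrp5), against 2.20% of all genes tested in either direction. Of 15 granulosa and cumulus cell markers, 11 were listed and 4 passed the filter on low values. None of the 11 was at 0, which says little, since no listed gene was at 0 in 2 or more libraries. The highest, Cyp19a1, had 5.81 to 8.38 FPKM. The summed level of the 11 was 9.80 and 13.9 FPKM in the NSN libraries against 14.5 and 13.7 in the SN libraries, and its part in the results was not tested. Of the markers, Foxl2, Amh, Inhbb and Tnfaip6 are not among the genes listed.

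Kdm2b and Nsd1 were the most abundant of these transcripts in both configurations, followed by Setd2, and the other 5 lay near 1 FPKM. None of the 8 passed the test between SN and NSN oocytes, against 7.93% of all genes tested (5.95% higher and 1.98% lower in SN). That split turns with the scaling, since 695 of the 926 calls were higher in SN but 78 of the 257 calls after median scaling. At an unadjusted p under 0.05 there were 2 of the 8, Nsd1 and Kdm2b, against 31.7% of all genes tested. All 8 had a higher mean in SN oocytes, by a factor of 1.09 (Kdm2a) to 1.29 (Dot1l) on the FPKM scale. A higher mean log2 level in SN was also found for 66.7% of all genes tested, and the median log2 fold change of all genes tested was 0.14. In simulated data the test found 17.9% of the smallest changes simulated. Those changes were larger than the differences of the 8 enzymes, so a count of 0 calls says little about differences of this size. A gene was called at an adjusted p under 0.05 in limma (Benjamini-Hochberg over all genes tested) together with a fold change of at least 1.2, and fold changes are SN minus NSN on the log2(FPKM + 0.5) scale, which understates those of genes near 1 FPKM.

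**Figure D1:**
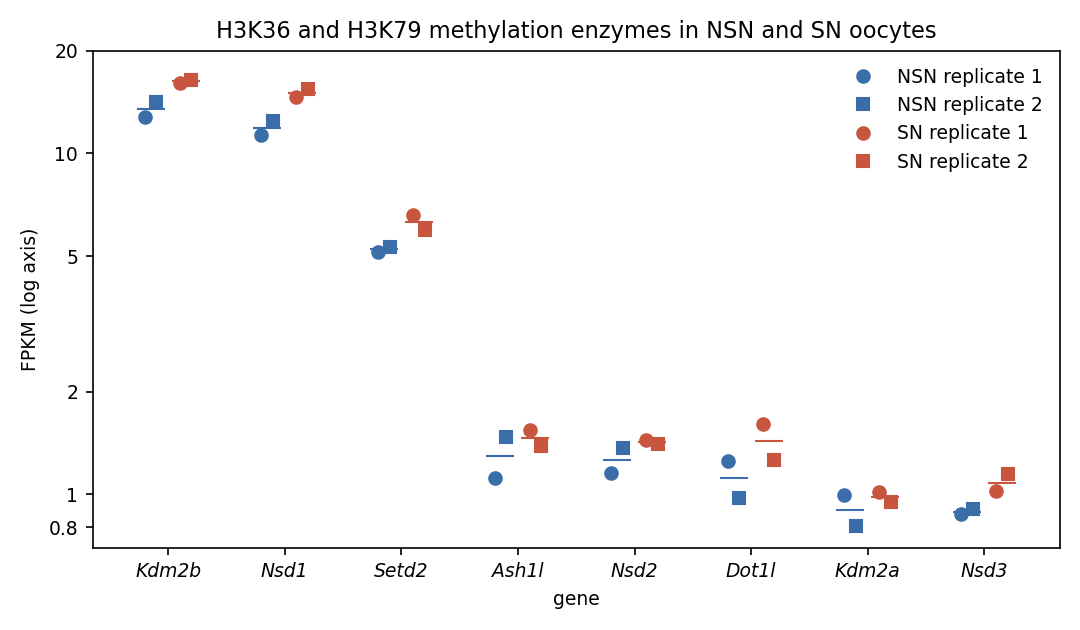
FPKM (log axis) of the 8 enzymes in each of the 4 libraries, with circles for replicate 1, squares for replicate 2 and lines at the group means (n = 2). Kdm2b and Nsd1 sit above 11 FPKM in every library and Setd2 between 5.13 and 6.58, whereas the other 5 genes sit between 0.810 and 1.61.

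Setd2, the writer of H3K36me3 (ENSMUSG00000044791.19, chromosome 9 of GRCm39 from 110358262 to 110447701, plus strand), had 5.13 and 5.32 FPKM in NSN oocytes, against 6.58 and 5.98 in SN oocytes. Both SN libraries lay above both NSN libraries. The difference, a log2 fold change of 0.24 (95% interval -0.05 to 0.53), was larger than the gaps of 0.05 and 0.13 between replicates but did not pass the test (limma adjusted p = 0.22). Setd2 has no exon in common with another annotated gene.

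Nsd1 dominated the NSD family (ENSMUSG00000021488.10, chromosome 13 from 55357560 to 55466138, plus strand). It had 11.4 and 12.4 FPKM in the NSN libraries against 14.7 and 15.5 in the SN libraries, and the groups did not overlap. Its log2 fold change of 0.33 (95% interval 0.08 to 0.58, unadjusted p = 0.017 in limma) exceeded both replicate gaps, 0.13 and 0.07, yet the limma adjusted p over all genes was 0.090. With read pairs in place of FPKM (limma voom), Nsd1 was called, with an adjusted p of 0.018, as were 19.7% of all genes tested in that way. After median scaling, which brought the median log2 fold change of all genes tested to 0.005, that of Nsd1 was 0.18 (limma adjusted p = 0.27).

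Nsd2 and Nsd3, the other members of the family, were about an order of magnitude lower. Nsd2 (ENSMUSG00000057406.18, chromosome 5 from 33977734 to 34055319, plus strand) had 1.15 and 1.37 FPKM in NSN and 1.45 and 1.41 in SN oocytes. The groups were apart only narrowly, and the log2 fold change of 0.13 (95% interval -0.26 to 0.52, limma adjusted p = 0.61) was smaller than the gap of 0.18 between the NSN replicates. It was 0.042 without NSN replicate 1 and 0.22 without NSN replicate 2. Of the exons of Nsd2, 17.3% lie in exons of genes on the opposite strand, Nelfa among them, and counting without strand leaves the read pairs there uncertain. Nsd3 (ENSMUSG00000054823.19, chromosome 8 from 26091527 to 26209694, plus strand) had 0.876 and 0.904 FPKM in NSN and 1.02 and 1.14 in SN oocytes. Its groups did not overlap, and its log2 fold change of 0.19 (95% interval -0.21 to 0.59) did not pass the test (limma adjusted p = 0.48).

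Within the NSD family, Nsd1 held 84.8% and 84.5% of the summed FPKM of NSN oocytes and 85.6% and 85.8% of that of SN oocytes. A share within a library does not depend on how the libraries are scaled, but it rests on the gene lengths used for the FPKM. The ratio of Nsd1 to Nsd2 was 9.85 and 9.06 in NSN against 10.1 and 10.98 in SN, whereas that of Nsd1 to Nsd3, 13.0 and 13.8 against 14.4 and 13.5, overlapped between the groups. None of these ratios was tested; the smallest exact two-sided permutation p that 2 libraries against 2 allow is 0.33.

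Ash1l, a Trithorax-group methyltransferase (ENSMUSG00000028053.14, chromosome 3 from 88857929 to 88986682, plus strand), had 1.11 and 1.48 FPKM in NSN and 1.55 and 1.38 in SN oocytes. The groups overlapped. The NSN replicates differed by 0.29 on the log2 scale, more than the difference of 0.14 between the groups (95% interval -0.29 to 0.56, limma adjusted p = 0.63). Without NSN replicate 1 the log2 fold change was -0.0087.

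Dot1l, the only H3K79 methyltransferase here (ENSMUSG00000061589.16, chromosome 10 from 80590996 to 80631313, plus strand), was represented by 119 to 187 read pairs a library. Its FPKM were 1.26 and 0.976 in NSN and 1.61 and 1.26 in SN oocytes. SN replicate 2 and NSN replicate 1 were almost level, at 1.265 and 1.257 FPKM. The log2 fold change of 0.26 matched the gaps between replicates, 0.25 in NSN and 0.26 in SN, and had a wide 95% interval of -0.18 to 0.71 (limma adjusted p = 0.37). It was 0.13 without NSN replicate 2 or SN replicate 1, and 0.39 without either of the other libraries. Exons of genes on the opposite strand, among them Plekhj1, cover 14.2% of its exons.

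The demethylase genes were far apart in level. Kdm2b (ENSMUSG00000029475.19, chromosome 5 from 123008720 to 123127886, minus strand) had 12.8 and 14.1 FPKM in NSN and 16.1 and 16.5 in SN oocytes, and the groups did not overlap. Its log2 fold change was 0.26 (95% interval 0.02 to 0.51, unadjusted p = 0.038 in limma), above the replicate gaps of 0.14 and 0.03, but the limma adjusted p was 0.14. After median scaling the log2 fold change was 0.12 (limma adjusted p = 0.45). Other annotated genes, Rnf34 among them, share 10.98% of its exons.

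Kdm2a (ENSMUSG00000054611.19, chromosome 19 from 4364447 to 4448313, minus strand) had 0.994 and 0.810 FPKM in NSN and 1.01 and 0.950 in SN oocytes. The groups overlapped, and the log2 fold change of 0.08 (95% interval -0.34 to 0.50, limma adjusted p = 0.78) was below the gap of 0.19 between the NSN replicates. It was -0.012 without NSN replicate 2 and -0.020 after median scaling. Kdm2b thus stood at 12.9 and 17.4 times the FPKM of Kdm2a in NSN oocytes and at 15.9 and 17.3 times in SN oocytes, with no separation of the groups.

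The FPKM of Kdm2b pool the transcripts of several start sites, and a gene value cannot tell its long form, with the demethylase domain, from its short form, which lacks that domain. RefSeq lists 4 promoter windows for Kdm2b, in a table on the build GRCm38.p6 that holds 3 of the 8 genes (Setd2 and Dot1l besides). The outermost and the innermost start lie 88749 bases apart. Below are the 250 bases before each of them, from 5′ to 3′ on the minus strand, matched to GRCm39, with every CG in capitals because CpG-rich DNA is what KDM2 proteins bind.
Kdm2b outer start, chr5:123127163-123127412: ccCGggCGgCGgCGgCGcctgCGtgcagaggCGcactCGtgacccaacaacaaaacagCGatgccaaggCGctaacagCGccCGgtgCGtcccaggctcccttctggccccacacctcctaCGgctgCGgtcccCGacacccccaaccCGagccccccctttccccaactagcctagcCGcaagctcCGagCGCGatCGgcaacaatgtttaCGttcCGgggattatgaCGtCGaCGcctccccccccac
Kdm2b inner start, chr5:123038414-123038663: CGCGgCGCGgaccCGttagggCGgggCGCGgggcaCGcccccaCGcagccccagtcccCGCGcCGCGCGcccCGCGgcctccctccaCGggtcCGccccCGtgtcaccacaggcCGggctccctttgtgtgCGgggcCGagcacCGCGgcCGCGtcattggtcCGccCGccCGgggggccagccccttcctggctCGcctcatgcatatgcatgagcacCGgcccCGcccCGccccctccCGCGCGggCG
The outer window holds 27 CG and the inner window 38, against a median of 6 over all 32851 windows, and 8.56% and 1.88% of all windows hold at least as many. Of the Kdm2b windows not printed, that near the inner start holds 36 and that near the outer start 12. Of all windows, 2.58% and 33.5% hold at least as many. The windows of Setd2 and Dot1l hold 31 and 44. CG reads the same on both strands, and its presence says nothing about whether a start was used in these oocytes.

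**Figure D2:**
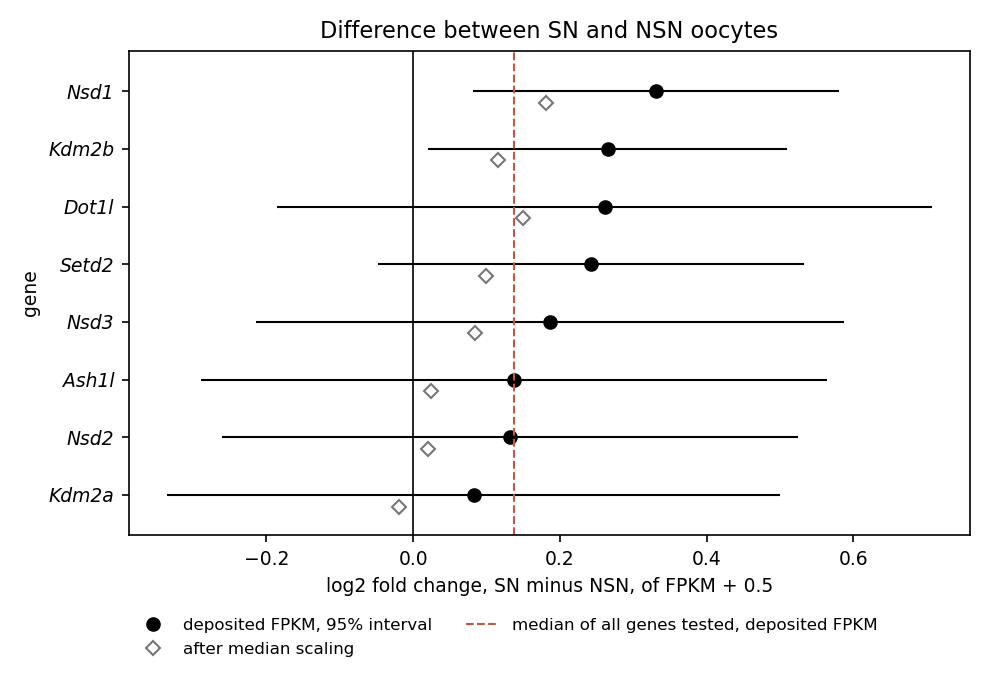
Log2 fold change of FPKM + 0.5 (SN minus NSN, 2 libraries each) for the 8 enzymes as black points with limma 95% intervals, and after median scaling as open diamonds; the dashed line is the median of all 11672 genes tested, 0.14. The intervals of Nsd1 and Kdm2b alone leave out 0, and the diamonds lie between -0.020 and 0.18.

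Read as a group, 6 of the 8 genes (Setd2, Nsd1, Nsd2, Nsd3, Dot1l and Kdm2b) had both SN libraries above both NSN libraries, as did 44.8% of all genes tested. None had both SN libraries below, as 17.8% of all genes tested had. The median log2 fold change was 0.21 over the 8 genes and 0.14 over all genes tested. After median scaling the medians were 0.09 and 0.005, none of the 8 was called (2.20% of all genes tested were), and Kdm2a turned negative, which left 7 above 0, against 50.6% of all genes tested. With a correction for gene length the median over the 8 genes was 0.03, none was called (2.74% of all genes tested were), and Nsd2, Nsd3, Ash1l and Kdm2a were negative, so the direction of these 4 genes depended on the processing. The merged exons of the 8 genes add up to 9252 to 19396 bases, and their longest annotated transcripts have 5419 (Kdm2b) to 13054 (Nsd1).

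The summed FPKM of the 8 genes were 34.7 and 37.4 in NSN and 44.0 and 44.0 in SN oocytes. Kdm2b and Nsd1 made up most of every sum, with 36.6% to 37.8% for Kdm2b and 32.7% to 35.1% for Nsd1. The sum of the 5 H3K36 methyltransferases was 1.42 and 1.44 times that of the demethylases in NSN oocytes and 1.48 and 1.46 times in SN oocytes. The groups did not overlap in this ratio, and its difference was not tested. The size of sums, shares and ratios across genes rests on the gene lengths used for the FPKM. Per kilobase of the longest annotated transcript, the NSN means were 2.58 for Setd2 and 14.6 for Kdm2b, in place of 5.23 and 13.5. Kdm2b stood at 1.13 and 1.14 times Nsd1 in NSN and at 1.09 and 1.06 times in SN oocytes. Log2 fold changes of Nsd1 and Kdm2b were 0.33 and 0.26 on the deposited FPKM. They were 0.10 and 0.11 with gene length correction and 0.22 and 0.22 with GC content correction, so their order depended on the processing. How often ratios of other genes separate the groups was not counted. The demethylase sum may include the short form of Kdm2b, which lacks the demethylase domain. FPKM give shares of a library of pooled oocytes, in which fewer cells with a transcript and less RNA per cell cannot be told apart.

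**Figure D3:**
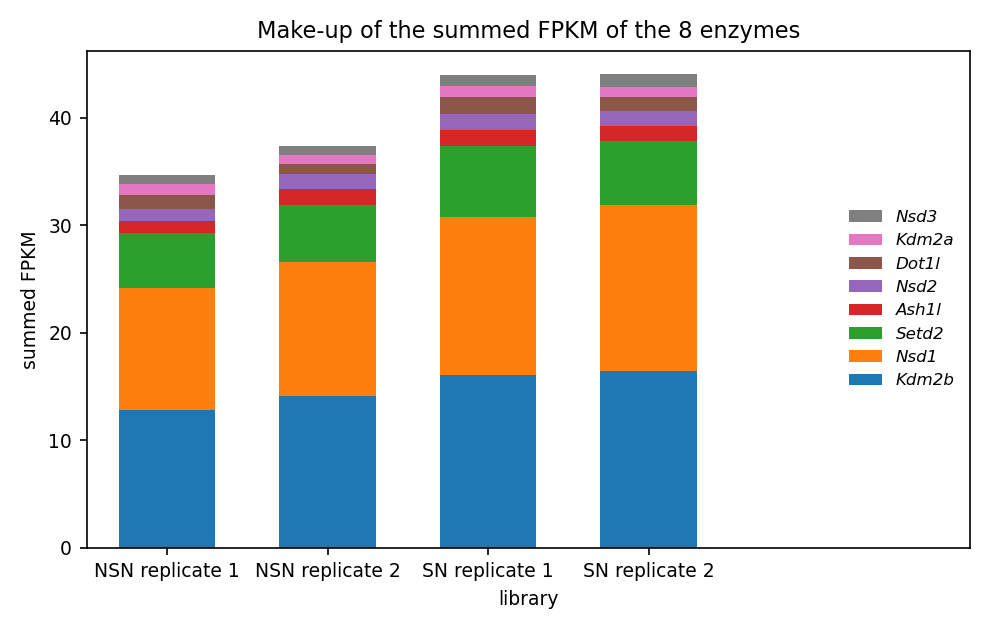
Summed FPKM of the 8 enzymes in each library, with 1 coloured segment per gene. The sums are 34.7 and 37.4 for NSN and 44.0 and 44.0 for SN oocytes, and the segments of Kdm2b and Nsd1 are the largest in all 4.

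The order of the levels was the same at the top in both configurations. In NSN oocytes it ran from Kdm2b (13.5 ± 0.938 FPKM, SD, n = 2) through Nsd1 (11.9 ± 0.765) and Setd2 (5.23 ± 0.135) to Ash1l, Nsd2, Dot1l, Kdm2a and Nsd3, and each of the last 5 overlapped its neighbour in the order. In SN oocytes Kdm2b (16.3 ± 0.265), Nsd1 (15.1 ± 0.550) and Setd2 (6.28 ± 0.428) again did not overlap, Ash1l, Dot1l and Nsd2 overlapped, and Nsd3 (1.08 ± 0.087) and Kdm2a (0.981 ± 0.045) came last without overlap. The order rests on the gene lengths used for the FPKM. Per kilobase of the longest annotated transcript, the first 4 places were unchanged in both configurations (Kdm2b, Nsd1, Setd2 and Ash1l), followed by Nsd2, Nsd3, Dot1l and Kdm2a. Setd2 depends most on this choice, since the smallest length that turns its FPKM into whole read pairs is 4175 bases and its longest transcript has 8460. With the longer length its means were 2.58 in NSN and 3.10 in SN oocytes, and they would be higher if the length used was a multiple of 4175.

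Partners, readers and counteracting enzymes were followed in 7 lists of 56 genes, of which 53 were listed and 41 tested. Of these, 7 were called higher in SN oocytes and 0 lower, 17.1% against 7.93% of all genes tested. Their median log2 fold change was 0.23, against 0.14 over all genes tested. After median scaling, 1 of the 41, Psip1, was called. With NSN replicate 2 left out 11 were called, and 0 with any one of the other 3 libraries left out, where 1685 and 0 to 148 of all 11672 genes were called.

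Among the readers of H3K36 methylation, 3 of 16 tested genes were called higher in SN oocytes, against 5.95% of all genes tested. Both SN libraries lay above both NSN libraries for 6 of the 16 and below for 4, against 44.8% and 17.8% of all genes tested. Psip1, whose PWWP domain binds methylated H3K36, had 27.5 and 29.7 FPKM in NSN and 50.2 and 44.7 in SN oocytes (log2 fold change 0.72, standard error 0.10, limma adjusted p = 0.036), but 50.6% of its exons lie in exons of Snapc3 on the opposite strand. Mtf2, a PRC2 subunit with a Tudor domain, had 13.9 and 14.8 against 20.3 and 22.5 FPKM (log2 fold change 0.56, limma adjusted p = 0.039). Hdgf, another PWWP protein, had 10.9 and 11.2 against 18.0 and 14.8 FPKM (log2 fold change 0.54, limma adjusted p = 0.048). Dnmt3a, the DNA methyltransferase that reads H3K36 methylation, had 8.71 and 8.14 FPKM in NSN and 7.77 and 7.35 in SN oocytes and was not called (log2 fold change -0.15, limma adjusted p = 0.40); it was named after its values were seen.

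H2B ubiquitination and the PAF1 complex stand upstream of H3K79 and H3K36 methylation. Of the 10 genes in their list, 3 were called higher in SN oocytes, against 5.95% of all genes tested. Both SN libraries lay above both NSN libraries for 8 of the 10 and below for 2, against 44.8% and 17.8% of all genes tested. Rnf20, the ubiquitin ligase of H2B, had 12.8 and 15.0 FPKM in NSN and 22.5 and 19.4 in SN oocytes (log2 fold change 0.58, limma adjusted p = 0.045). The PAF1 complex subunits Leo1 (39.2 and 41.7 against 54.2 and 56.6 FPKM) and Paf1 (21.4 and 22.4 against 29.9 and 30.0 FPKM) had log2 fold changes of 0.45 and 0.44 (limma adjusted p = 0.040 and 0.042). The 2 genes of this list with both SN libraries below were not called. Ube2a, the most abundant of the list, had 83.4 and 76.0 against 69.1 and 67.7 FPKM (log2 fold change -0.22, limma adjusted p = 0.13). Wac had 1.75 and 1.25 against 1.04 and 0.884 FPKM (log2 fold change -0.44, limma adjusted p = 0.17). In PRC1.1, the complex of KDM2B, 1 of 7 tested genes was called higher, the deubiquitinase gene Usp7, with 38.4 and 47.7 against 62.2 and 60.7 FPKM (log2 fold change 0.52, limma adjusted p = 0.048). Of the 7, 3 had both SN libraries above both NSN libraries. The 2 with both below were the most abundant of the list and not called. They were Skp1 (4740 and 4726 against 3982 and 3829 FPKM, log2 fold change -0.28, limma adjusted p = 0.053) and Pcgf1 (440 and 460 against 373 and 413 FPKM, log2 fold change -0.20, limma adjusted p = 0.15).

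No gene was called in the other 4 lists. Of the further H3K36 methyltransferases, Setmar was the most abundant, with 19.0 and 17.8 FPKM in NSN and 16.6 and 15.6 in SN oocytes (log2 fold change -0.19, limma adjusted p = 0.24). Of the further demethylases, Kdm4a, which acts on H3K9 and H3K36, had 1.49 and 1.57 against 2.18 and 2.0 FPKM (log2 fold change 0.35, limma adjusted p = 0.17). The DOT1L partner Mllt10 had 46.5 and 46.3 against 50.7 and 49.5 FPKM (log2 fold change 0.11, limma adjusted p = 0.38), and Supt6, which links SETD2 to RNA polymerase II, 7.94 and 8.58 against 9.63 and 9.27 FPKM (log2 fold change 0.18, limma adjusted p = 0.29). Larger differences in the same lists were those of Mllt3 (19.5 and 23.8 against 34.0 and 27.4 FPKM, log2 fold change 0.49, limma adjusted p = 0.076) and Iws1 (6.04 and 6.63 against 8.77 and 9.39 FPKM, log2 fold change 0.49, limma adjusted p = 0.053). Mllt3 and Iws1 were called in voom, as were 19.7% of all genes tested in that way. In either list, 2 of 2 tested genes had log2 fold changes above 0, against 66.7% of all genes tested.

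**Figure D4:**
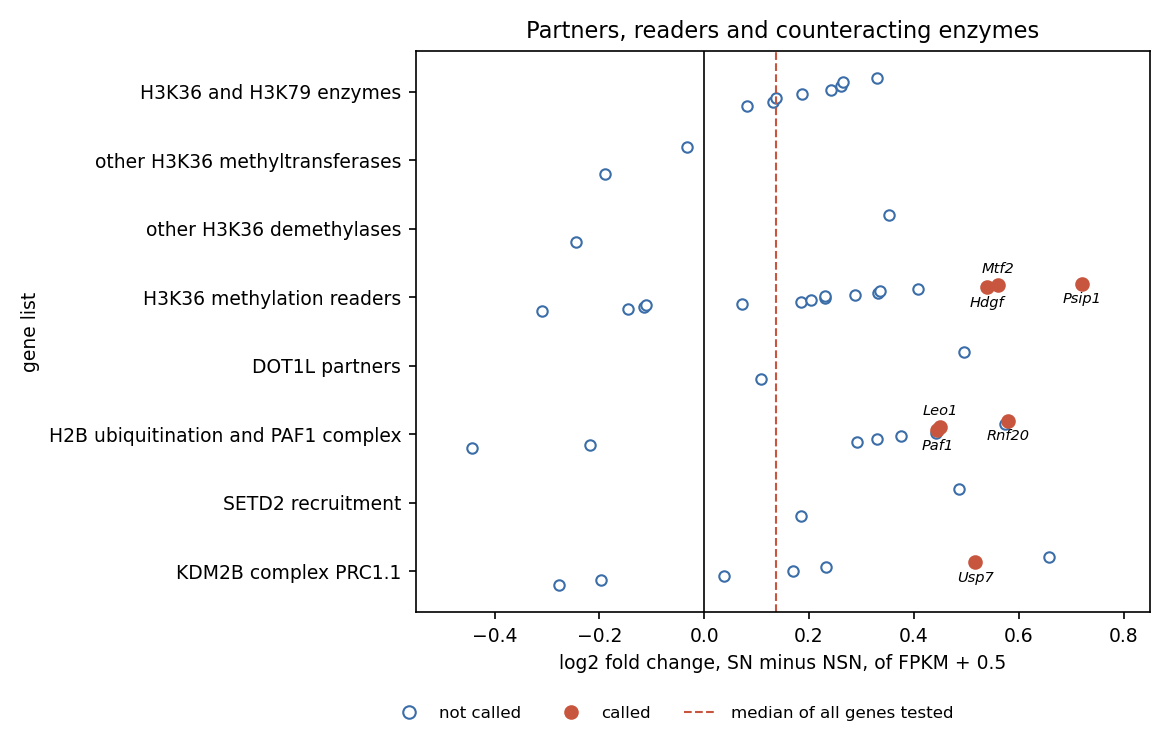
Log2 fold change of FPKM + 0.5 (SN minus NSN) of the 8 enzymes and of the tested genes in the 7 further lists, with 1 point per gene, filled where the gene was called; the dashed line is the median of all genes tested, 0.14. The 7 filled points lie from 0.44 (Paf1) to 0.72 (Psip1), beyond the highest of the 8 enzymes on this scale, Nsd1 at 0.33.

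For each of the 8 enzymes, the tested gene with the most similar profile over the 4 libraries was found by the Euclidean distance of the centred log2(FPKM + 0.5) values. It was Pdx1 for Nsd1 (distance 0.012), Wwox for Setd2 (0.016), Stim2 for Nsd2 (0.012), Dtymk for Nsd3 (0.009), Wrnip1 for Ash1l (0.003), Gm6767 for Dot1l (0.029), Txnl1 for Kdm2a (0.031) and 9630014M24Rik for Kdm2b (0.009). Such likeness is common over 4 libraries. Within a distance of 0.05 there were 98 genes for Kdm2b and 66 for Nsd1, but 1 for Dot1l.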

How the data were processed

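Libraries of NSN and SN oocytes (2 each) were measured by RNA-seq. Per the labels and the study's methods, the authors trimmed reads with Trim Galore 0.6.10, aligned them with HISAT2 to the GRCm39 build, assigned read pairs to exons in featureCounts without regard to strand, ran DESeq2 on counts not used here, and deposited FPKM made by their own script. The FPKM of 5 tRNA genes of the mitochondrion gave the library totals, and from these came whole read pairs (within 0.001) for 99.89% of genes. The floor of 3 read pairs (0.167 to 0.176 FPKM at 1 kb) covers counting error only, and the 95% intervals of fold changes come from the spread between libraries. Gene positions and exons came from a later GENCODE release on GRCm39, where 97.76% of symbols matched a single gene.

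Genes under a mean of 0.5 FPKM were left out. Log2(FPKM + 0.5) values of SN and NSN oocytes were compared in limma 3.58.1 (R 4.3.3, eBayes with a variance trend). Tests were two-sided. The procedure was tested on simulated data, where 12.4% of the calls were false, above the nominal rate. Most of the smallest changes simulated were missed, with 17.9% of them found. Other values came from Python 3.11.15 with numpy 2.4.6 and pandas 2.3.3, and plots from matplotlib 3.10.9. The 8 genes, the lists and the tests were chosen with earlier results of these data known. Named genes are the 8 enzymes, called genes of each list (up to 3 by fold change), the most abundant gene of a list without calls, and nearest profiles. Dnmt3a, Ube2a, Wac, Skp1, Pcgf1, Mllt3 and Iws1 were named after their values were seen. Alternatives were other pseudocounts, filters, scalings and variance models, the replicate block, voom, and each library left out, and, chosen after seeing the data, corrections for gene length and GC content (loess span 0.3) and voom with median scaling.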

Additional observations from a re-analysis of the deposited data

How the results depend on the processing

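The number of the 8 enzymes called was 0 under every alternative but voom on the read pairs, where it was 1 (Nsd1, log2 fold change 0.34, limma adjusted p = 0.018). It was 0 with each library left out in turn, where the lone library of a group was assumed to vary like the others; these fits called 0 (without NSN replicate 1), 1685 (without NSN replicate 2), 148 (without SN replicate 1) and 11 (without SN replicate 2) of 11672 genes, so that most of them could show little about the enzymes. With no filter on low values, without the variance trend, and with gene length correction plus the block, 0 of all genes were called. A count of 0 enzymes in these settings therefore says little. At a mean FPKM of at least 5, only 3 of the 8 were tested. Of 131 log2 fold changes of the enzymes over all alternatives, 115 had the same sign and call, 1 was newly past the threshold and 15 changed sign. Correcting for gene length, with the block or not, gave -0.10 for Nsd2, -0.029 for Nsd3, -0.063 for Ash1l and -0.15 for Kdm2a. Correcting for GC content gave -0.091 for Nsd2, -0.016 for Ash1l and -0.017 for Kdm2a. Median scaling gave -0.020 for Kdm2a, and -0.022 when combined with voom. Leaving out 1 library gave -0.0087 (without NSN replicate 1) to 0.28 for Ash1l, and -0.012 (without NSN replicate 2) to 0.18 for Kdm2a. None of these negative values passed the threshold.

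Of the 41 other genes, 7 were called. It was 0 with all listed genes (53 of these) and without the variance trend, settings that called 0 of all genes (4092 and 3449 at an unadjusted p under 0.05 in limma), 12 of 25 at a mean FPKM of at least 5 (11 higher and 1 lower, beside 1496 of all 5519 genes), and 1, Psip1, after median scaling, quantile normalisation and either correction. Voom gave 15 (14 higher, 1 lower), and 11 with median scaling (7 higher, 4 lower). The single lower gene, at a mean FPKM of at least 5 and in voom without median scaling, was Skp1. Leaving out 1 library gave 0 to 11, with 11 without NSN replicate 2 and 0 without each of the others, beside the counts over all genes above. Nothing but a number ties NSN and SN libraries of the same replicate number (correlation of their deviations across genes -0.07). With the replicate block 1 of the 41 genes was called, Psip1, and 0 with the block and gene length correction, a setting that called 0 of all genes (2767 at an unadjusted p under 0.05 in limma); no enzyme was called. Where a value moved, the cause was not tested.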
